A study of Mus musculus with 12 samples.

Results

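Bone marrow of mice that carry an activated STAT3 allele was compared with marrow of control mice, none of which had received short-chain fatty acids (SCFA). The comparison rests on 6 of the 12 RNA-seq libraries of the study, 3 labelled homozygous untreated and 3 labelled control untreated, picked by title and treatment label, and on every gene of the count table. The homozygous mice have the genotype R26STAT3Cstopfl/fl CD4Cre. STAT3C is a constitutively active form of the transcription factor STAT3, inserted at the Rosa26 locus behind a floxed stop cassette, and a Cre recombinase under the CD4 promoter, active mainly in T cells, removes the cassette. The genotype label of homozygous untreated 1 names R26 and those of homozygous untreated 2 and 3 do not, and because the titles group them together the 3 are treated here as sharing it. Control mice are labelled control only, so whether they carry Cre or a floxed allele is not given in the sources used here. Marrow of both groups was taken at about 8 weeks of age and kept for about 24 hours in alpha-MEM medium, after which the cells that had not attached were collected. The other 6 libraries, from homozygous and control mice given SCFA in their drinking water, share the estimate of gene-wise spread and are otherwise used only where the effect of genotype with and without SCFA is set side by side. No label states whether replicates are different animals, so the p-values measure the spread between libraries, which may in part be technical.

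Marrow holds the precursors of most blood cells. Its B lineage runs from Rag-expressing pro-B cells through pre-B cells with a surrogate light chain to B cells with surface IgM, and its myeloid lineages give neutrophils, monocytes and, from monocyte-like precursors, the bone-resorbing osteoclasts named in the study's title. STAT3 transmits signals of interleukin 6 and related cytokines and induces its own inhibitor Socs3. Interferons act through receptors and kinases on factors that bind the interferon-stimulated response element and raise a shared set of antiviral genes.

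Total counts ranged from 19494863 to 20512888 in homozygous libraries and from 16954355 to 18926194 in control libraries, and 20347 to 21603 genes had at least 1 count in a library. Levels are given as CPM, that is, counts scaled to the normalised library total. In a principal component analysis of the 6 libraries the first component held 38.4% of the variance, with homozygous libraries at -43.1, -51.2 and -34.2 and control libraries at 7.82, 80.8 and 40.0. The control libraries were thus farther from one another than the homozygous ones, and control untreated 2 stood farthest out. The cells are labelled progenitors. The progenitor genes Kit, at 55.6 to 76.97 CPM in homozygous and 49.98 to 58.5 CPM in control libraries, and Cd34 were detected in every library beside far higher levels of genes of maturing cells. S100a8, a neutrophil and monocyte protein, had 28655 to 43685 CPM in homozygous and 12408 to 30848 CPM in control libraries. Defining markers of T cells (Cd3e, 1.08 to 4.07 CPM in homozygous and 2.85 to 4.21 CPM in control libraries), natural killer cells (Klrb1c, 0.434 to 0.752 and 0 to 1.60 CPM in the same order) and endothelium (Cdh5, 0.401 to 0.977 and 0.783 to 1.14 CPM) were low in both groups.

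Of 15674 genes tested, 1048 rose and 1275 fell in homozygous untreated marrow relative to control untreated marrow (edgeR quasi-likelihood test, adjusted p under 0.05). These are 6.69% and 8.13% of the genes tested, the shares to set beside the list counts of this fit below. A change of at least 2-fold was found in 239 of the rises and 442 of the falls, the median log2 fold change over all tested genes was -0.04, and 2219 of the called genes had no overlap between the 3 homozygous and the 3 control libraries. Lack of overlap was common, called or not. Of all tested genes, 14.7% had every homozygous library above every control library and 17.7% had every one below. Of the 15 largest rises named below, 9 were on interferon lists and 3 were stefins, protease inhibitors of maturing myeloid cells, and 11 of 13 B lineage transcription factors fell. The fold change followed the GC content of the transcripts, with Spearman's rho -0.50 over 15385 genes, a description across genes of the same 6 libraries. Of 10 equal groups of genes by GC content, the lowest (28.3% to 40.6%) had 12.5% rises and 0.52% falls, and in the highest (57.1% to 78.3%) 0.39% rose and 23.5% fell. With each library's smooth trend over GC content removed, a step chosen after seeing the data, 941 genes rose and 624 fell, and 1144 were called in both fits in the same direction. Because the adjustment moved the balance of rises and falls, GC-adjusted values stand beside most list counts and some single genes below. Fold changes without one are as fitted. Totals over all genes also moved when 1 library was left out. Without homozygous untreated 1, 2 and 3 they were 421 rises and 467 falls, 375 and 395, and 636 and 1197. Without control untreated 1, 2 and 3 they were 1970 and 2363, 374 and 509, and 468 and 641. List counts from those fits are to be set beside these totals.

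**Figure D1:**
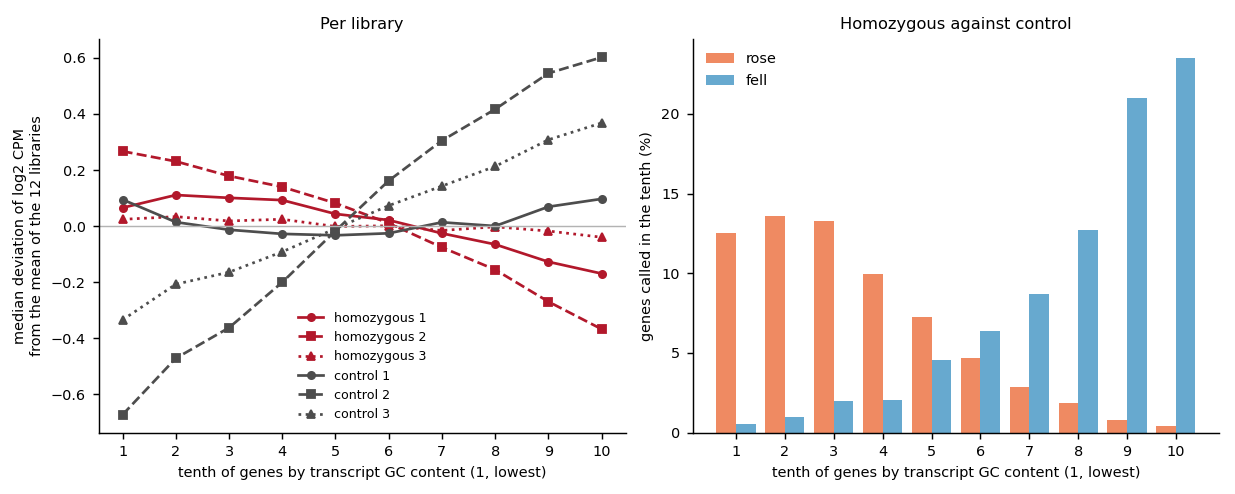
Left, the median deviation of log2 CPM from the mean of the 12 libraries of the study for 10 equal groups of genes by transcript GC content, 1 line per untreated library; right, the percentage of genes in each group that rose or fell in homozygous against control marrow. The slopes of control untreated 2 and 3 run opposite to that of homozygous untreated 2, and calls shift from 12.5% rises in the lowest group to 23.5% falls in the highest.

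The slope behind this trend differed between libraries. Per 10 percentage points of GC content, log2 CPM relative to the mean of all libraries changed by -0.0985, -0.308 and -0.00832 in homozygous untreated 1, 2 and 3, and by 0.0205, 0.637 and 0.353 in control untreated 1, 2 and 3. Control untreated 1 lay closer to the homozygous libraries than to the other controls in this respect, and control untreated 2 had the steepest slope. The adjustment removes each library's trend whatever its source, so it cannot tell a technical trend from one that goes with genotype. The part of this trend in the differences between genotypes was not tested.

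The 15 largest rises among called genes with at least 5 CPM on average and no overlap between groups were Iigp1, Eda2r, Serpina3f, Gbp2, Ifit3b, Tgtp1, Ifit3, Ifi205, Csta2, Stfa2, Apol11b, Cstdc5, Gbp6, Gdf15 and Oas1g. Of these, 9, Serpina3f among them, are on the interferon lists used below and 3 are stefins. Serpina3f, a serine protease inhibitor, had 12.97, 15.4 and 7.97 CPM in homozygous libraries, against 1.08, 1.02 and 1.08 CPM in control libraries (log2 fold change 3.51 ± 0.39 (SE), adjusted p = 6.32e-05). Apol11b, an apolipoprotein L family member, had 339, 308 and 265 CPM in homozygous libraries, against 49.5, 47.2 and 38.3 CPM in control libraries (log2 fold change 2.76 ± 0.15 (SE), adjusted p = 1.73e-07). Eda2r, a receptor of the tumour necrosis factor family that p53 induces, had 37.8, 31.00 and 22.7 CPM in homozygous libraries, against 5.13, 0.268 and 1.03 CPM in control libraries (log2 fold change 3.85 ± 0.84 (SE), adjusted p = 0.01). Every homozygous library was above every control library for these 3 genes, and control untreated 1 had the highest Eda2r level of the controls by a wide margin.

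The 15 largest falls were Tmem132e, Dtx1, Col5a3, Srpk3, Tmem108, Fam129c, Reln, Blk, Ccdc92b, Edaradd, Mturn, Arvcf, Smtnl2, Sertad4 and Cbx7. Fam129c, a gene of B lymphocytes also known as BCNP1, had 22.9, 27.4 and 22.6 CPM in homozygous libraries, against 90.1, 119 and 98.1 CPM in control libraries (log2 fold change -2.08 ± 0.15 (SE), adjusted p = 1.49e-06). Reln, which encodes the secreted glycoprotein reelin, had 6.67, 9.56 and 10.5 CPM in homozygous libraries, against 37.4, 37.5 and 38.1 CPM in control libraries (log2 fold change -2.07 ± 0.28 (SE), adjusted p = 0.000317). Col5a3, a chain of type V collagen, had 2.71, 4.27 and 5.67 CPM in homozygous libraries, against 24.3, 45.8 and 35.05 CPM in control libraries (log2 fold change -3.05 ± 0.29 (SE), adjusted p = 4.35e-05). The control libraries of Reln lay close together, and no homozygous library of the 3 genes reached a control library. After GC adjustment the log2 fold changes were -1.51 for Fam129c, -1.89 for Reln and -2.42 for Col5a3 (adjusted p = 8.25e-06, 0.000346 and 3.26e-05). Of the 30 named genes, 28 were called in every one of the 14 alternative fits. The genes were picked from these same libraries for a call, a large change and no overlap, so this count is not separate support. Csta2 and Cstdc5 had no GC content and were left unadjusted in the GC-adjusted fits. Edaradd was lost without homozygous untreated 1 or 2 or control untreated 2, and Arvcf in the GC-adjusted fit (adjusted p = 0.0984) and in 5 of the 6 fits that left out a library, with an adjusted p of up to 0.132.

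**Figure D2:**
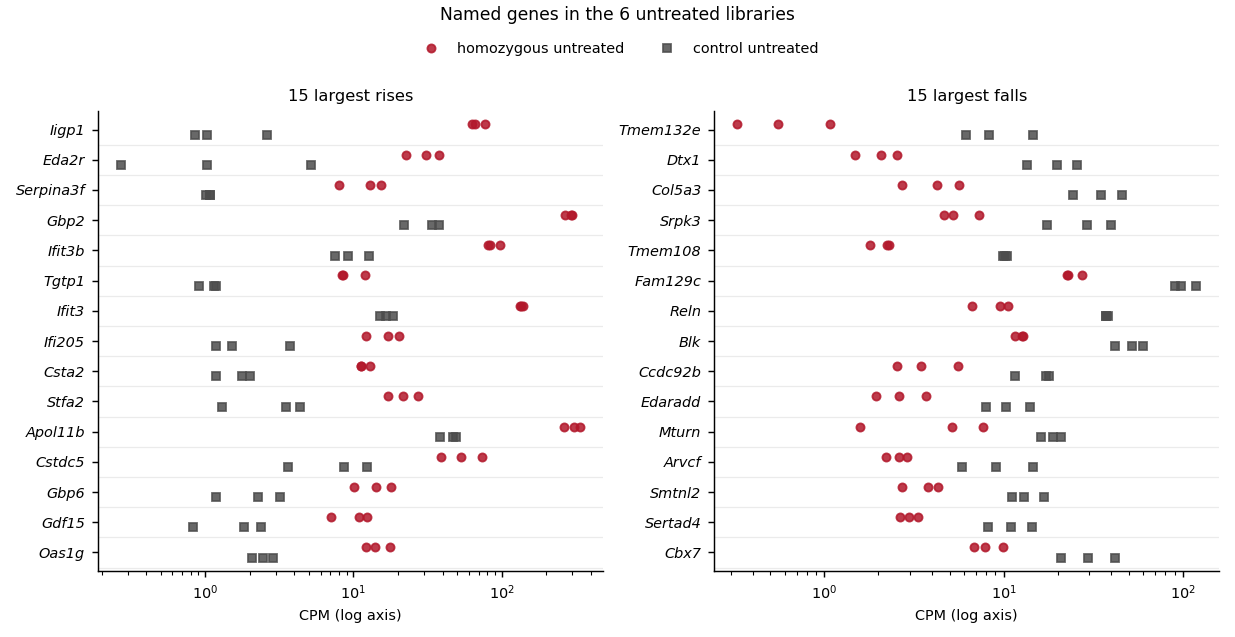
CPM on a log axis in each homozygous untreated (circles) and control untreated (squares) library for the 15 largest rises and 15 largest falls, ordered by log2 fold change. In every row the 3 circles and the 3 squares do not overlap, as the naming rule required.

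Interferon-induced genes were higher in homozygous marrow across families that differ in function. All 6 IFIT genes, whose products bind foreign RNA, rose, as did all 9 immunity-related GTPases and 10 of 11 tested members of the Ifi200 family of DNA sensors, where 6.69% of all tested genes rose. The median log2 fold change was 2.54 for the IFIT genes, 2.54 for the GTPases and 1.38 for the Ifi200 family, beside -0.04 over all tested genes. The listed type I interferon genes themselves were at or near 0 counts in both groups. In bulk RNA, a larger share of cells that express a gene and more of its RNA per cell cannot be told apart, here and in every result that follows.

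**Figure D3:**
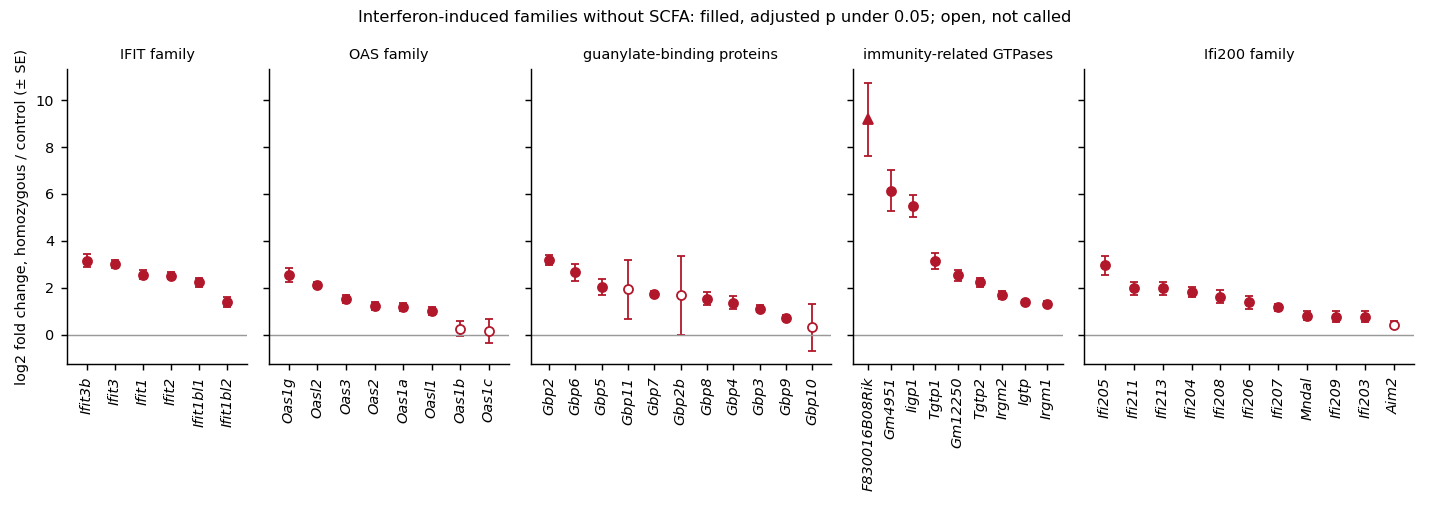
Log2 fold change of homozygous over control untreated libraries with its standard error, for every tested member of 5 interferon-induced families; filled symbols were called, open symbols were not, and the triangle marks a gene with 0 counts in all 3 control libraries, whose fitted value depends on the prior count. The 6 IFIT and 9 GTPase symbols are all filled.

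Of 13 listed interferon ligands and related inducers, 8 were not tested for want of counts. Ifna1, Ifna2, Ifna4, Ifna5, Ifnl2 and Ifnl3 had 0 counts in all 6 libraries. Ifnb1 was seen in homozygous untreated 1 alone, at 0.108 CPM, and Ifng had 0 counts in homozygous libraries and at most 0.856 CPM in control libraries. Production by cells that were not collected was not measured. Il15, a cytokine that maintains natural killer and memory T cells, had 81.2, 76.3 and 74.4 CPM in homozygous libraries, against 57.6, 37.4 and 40.97 CPM in control libraries (log2 fold change 0.77 ± 0.16 (SE), adjusted p = 0.0088). Il12a, a subunit of interleukins 12 and 35, was lower, with 10.4, 8.07 and 10.9 CPM in homozygous libraries, against 18.1, 22.4 and 22.4 CPM in control libraries (log2 fold change -1.10 ± 0.26 (SE), adjusted p = 0.0146), a call lost without homozygous untreated 2.

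Among 19 receptors, kinases and transcription factors of the interferon pathways, 4 rose and 1 fell, with a median log2 fold change of 0.07. After GC adjustment 7 rose and 1 fell (median 0.20), and 8 rose with DESeq2 and with limma-voom. Irf7, the factor that amplifies type I interferon production, had 236, 207 and 243 CPM in homozygous libraries, against 93.6, 120.2 and 97.6 CPM in control libraries (log2 fold change 1.14 ± 0.12 (SE), adjusted p = 4.98e-05). Every homozygous library was well above every control library. Stat2, at a log2 fold change of 0.37 (adjusted p = 0.158), Irf9 (0.33, 0.0554) and the type I receptor chains Ifnar1 (-0.10, 0.656) and Ifnar2 (0.07, 0.659) were not called. Nlrc5, the transactivator of MHC class I genes, rose (0.73, adjusted p = 0.019) and Irf8, a factor of monocyte, dendritic and B cell development, fell (-0.70, 0.0238). The Nlrc5 call was lost without homozygous untreated 2 or 3 or control untreated 3. The list had 2 rises in each of those 3 fits. Without control untreated 1 the number of falls in the list was 4, and without homozygous untreated 1 or 2 or control untreated 2 or 3 it was 0.

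Ifit3 had 140.0, 135 and 132 CPM in homozygous libraries, against 15.01, 16.5 and 18.4 CPM in control libraries (log2 fold change 3.03 ± 0.17 (SE), adjusted p = 1.73e-07). Ifit2 had 189, 208 and 198 CPM in homozygous libraries, against 32.6, 39.2 and 31.5 CPM in control libraries (log2 fold change 2.53 ± 0.14 (SE), adjusted p = 1.73e-07), and Ifit1 had 359, 347 and 344 CPM in homozygous libraries, against 69.5, 42.98 and 65.9 CPM in control libraries (log2 fold change 2.56 ± 0.19 (SE), adjusted p = 1.49e-06). The near-identical copy Ifit3b, whose reads may be divided with Ifit3 in an unknown way, had 97.8, 83.8 and 80.8 CPM in homozygous libraries, against 9.19, 7.46 and 12.8 CPM in control libraries (log2 fold change 3.15 ± 0.28 (SE), adjusted p = 8.25e-06). In each of these genes the 3 homozygous libraries lay close together and far above the controls. All 6 rises remained in every fit that left out a library and in the GC-adjusted fit, where the median was 2.26.

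Of 8 oligoadenylate synthetases and relatives, which sense double-stranded RNA and activate RNase L, 6 rose and none fell (median 1.21, 1.44 after GC adjustment). Oasl2 had 483, 457 and 469 CPM in homozygous libraries, against 96.1, 100.3 and 125 CPM in control libraries (log2 fold change 2.13 ± 0.12 (SE), adjusted p = 1.73e-07). Oas3 had 363, 477 and 346 CPM in homozygous libraries, against 154, 123 and 134 CPM in control libraries (log2 fold change 1.53 ± 0.16 (SE), adjusted p = 4.22e-05). Both groups kept well apart, and Oas1g (2.57), Oas1a (1.19), Oas2 (1.22) and Oasl1 (1.00) rose as well. Oas1b (0.25, adjusted p = 0.621) and Oas1c (0.16, 0.86) were not called.

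Guanylate-binding proteins and immunity-related GTPases attack the vacuoles of intracellular microbes. Of 11 tested guanylate-binding proteins 8 rose and none fell, and 7 rose after GC adjustment (medians 1.68 and 1.40). Gbp2 had 299.9, 292 and 267 CPM in homozygous libraries, against 34.1, 21.8 and 37.9 CPM in control libraries (log2 fold change 3.20 ± 0.21 (SE), adjusted p = 6.92e-07). Gbp7 had 249, 285 and 224 CPM in homozygous libraries, against 71.4, 80.5 and 74.3 CPM in control libraries (log2 fold change 1.74 ± 0.13 (SE), adjusted p = 2.18e-06). For both genes the groups lay far apart. Gbp10, Gbp11 and Gbp2b, each under 4 CPM in every library, were not called.

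The immunity-related GTPase Iigp1 had 62.9, 65.8 and 76.9 CPM in homozygous libraries, against 1.03, 0.859 and 2.59 CPM in control libraries (log2 fold change 5.49 ± 0.46 (SE), adjusted p = 4.7e-06), the largest rise among the named genes. Igtp had 171, 157 and 161 CPM in homozygous libraries, against 59.9, 61.2 and 65.4 CPM in control libraries (log2 fold change 1.39 ± 0.11 (SE), adjusted p = 3.43e-06). Tgtp1 had 8.46, 8.33 and 12.04 CPM in homozygous libraries, against 1.14, 0.912 and 1.17 CPM in control libraries (log2 fold change 3.15 ± 0.33 (SE), adjusted p = 3.85e-05), and its near-identical neighbour Tgtp2 had 59.8, 56.1 and 63.6 CPM in homozygous libraries, against 11.8, 10.04 and 16.2 CPM in control libraries (log2 fold change 2.24 ± 0.19 (SE), adjusted p = 5.54e-06). The reads of these 2 copies may have been divided between them. F830016B08Rik had 118, 15 and 85 counts in homozygous libraries and 0 in all 3 control libraries, for which no fold is given. Irgm1 (1.32) and Irgm2 (1.69), which regulate the other GTPases, rose together with them, and all 9 calls remained in every alternative.

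The promoters of several of these genes hold known binding motifs, shown here because they differ in layout while the genes rose together. Each line gives the 200 bases before the RefSeq transcription start in the mouse build GRCm38.p6, read on the gene's strand; capitals mark the core of the interferon-stimulated response element (GAAANNGAAA, on either strand) and the core of a STAT site (TTCNNNGAA). The windows lie at chr19:34583329-34583528 on the plus strand for Ifit3, chr3:142620463-142620662 on the plus strand for Gbp2, chr11:58199356-58199555 on the plus strand for Igtp, chr11:48992247-48992446 on the minus strand for Tgtp1 and chr15:77643287-77643486 on the minus strand for Apol11b.
Ifit3: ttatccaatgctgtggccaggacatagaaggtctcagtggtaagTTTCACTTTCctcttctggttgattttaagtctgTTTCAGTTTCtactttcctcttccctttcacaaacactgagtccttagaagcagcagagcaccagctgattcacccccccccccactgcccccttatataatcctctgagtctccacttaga
Gbp2: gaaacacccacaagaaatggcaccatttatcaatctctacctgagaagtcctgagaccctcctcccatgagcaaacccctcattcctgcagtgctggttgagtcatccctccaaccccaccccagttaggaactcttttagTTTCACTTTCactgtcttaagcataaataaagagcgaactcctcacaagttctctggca
Igtp: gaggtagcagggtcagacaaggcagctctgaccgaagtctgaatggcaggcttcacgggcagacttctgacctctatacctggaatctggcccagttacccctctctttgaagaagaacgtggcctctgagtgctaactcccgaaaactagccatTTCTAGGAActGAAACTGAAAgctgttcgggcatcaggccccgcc
Tgtp1: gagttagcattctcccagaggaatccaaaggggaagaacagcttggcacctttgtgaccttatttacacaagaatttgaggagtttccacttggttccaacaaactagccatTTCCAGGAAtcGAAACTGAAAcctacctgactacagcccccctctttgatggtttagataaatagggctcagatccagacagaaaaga
Apol11b: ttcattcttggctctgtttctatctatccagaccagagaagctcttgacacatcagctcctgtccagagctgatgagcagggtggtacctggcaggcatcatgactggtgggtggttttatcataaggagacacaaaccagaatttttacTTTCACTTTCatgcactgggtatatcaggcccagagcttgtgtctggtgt

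Ifit3 carried 2 response element cores, 156 to 147 and 122 to 113 bases before its start. Gbp2 carried 1 at 59 to 50 bases and Apol11b 1 at 50 to 41 bases. In Igtp and Tgtp1 a STAT core stood 2 bases upstream of a response element core of the same letters, GAAACTGAAA, at 45 to 37 and 34 to 25 bases in Igtp and at 88 to 80 and 77 to 68 bases in Tgtp1. A match describes the letters and not binding.

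Promoters of 300 bases, 250 before to 50 after the start, were available from the RefSeq table for 10757 tested genes (13722 promoters). The response element core, searched on both strands, stood in 3.36% of all of them, in 9.34% of promoters of genes that rose, in 24.4% of those that rose at least 2-fold and in 2.09% of those that fell. Among the called rises of the interferon-induced lists, 39 of 66 promoters (59.1%), belonging to 35 of 56 genes, held it. Outside all interferon lists, 10.7% of the promoters of genes that rose at least 2-fold held it. The STAT core stood in 7.13% of all promoters, 8.85% of those of rising genes and 22.7% of those of rising interferon-induced genes. For genes that rose in the GC-adjusted fit the shares were 10.1% and 9.12%.

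The Ifi200 family lies in 1 cluster and its members sense DNA or act in the nucleus. Ifi204 had 406, 420.4 and 411 CPM in homozygous libraries, against 149, 75.98 and 126 CPM in control libraries (log2 fold change 1.82 ± 0.20 (SE), adjusted p = 6.59e-05). Ifi207 had 206, 241 and 239 CPM in homozygous libraries, against 109, 89.3 and 107 CPM in control libraries (log2 fold change 1.17 ± 0.15 (SE), adjusted p = 0.000221). Control untreated 2 was the lowest library for both genes, and the groups did not overlap. Between 7 and 11 members rose when a library was left out, and 9 after GC adjustment. Aim2, the inflammasome sensor, was not called (0.44, adjusted p = 0.0593).

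Of 47 other tested interferon effectors, 34 rose and 1 fell (median 0.89), and 40 rose and 1 fell after GC adjustment. Rtp4, a chaperone of receptors with antiviral activity, had 411, 441 and 410.1 CPM in homozygous libraries, against 114, 84.7 and 81.9 CPM in control libraries (log2 fold change 2.17 ± 0.15 (SE), adjusted p = 8.15e-07). Zbp1, a sensor of left-handed nucleic acid, had 99.7, 77.4 and 87.4 CPM in homozygous libraries, against 19.6, 26.3 and 25.5 CPM in control libraries (log2 fold change 1.89 ± 0.15 (SE), adjusted p = 3.43e-06). The groups lay far apart in both. The RNA sensors Ifih1 (1.22) and Ddx58 (0.79), the kinase Eif2ak2 (1.16) and the negative regulator Usp18 (0.89) also rose. Isg15, a ubiquitin-like modifier (0.28, adjusted p = 0.236), and Rsad2, the enzyme viperin (0.10, 0.667), which belong to the same response, were not called. Isg20, an exonuclease also expressed in B cells, fell (-0.99, adjusted p = 0.00107).

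MHC class I genes and the immunoproteasome, which present peptides of the cell's own proteins, rose in 10 of 19 members and fell in none (median 0.49). After GC adjustment 16 rose (median 0.68), and 6 rose without control untreated 3. B2m, the shared light chain, had 2651, 2778 and 2077 CPM in homozygous libraries, against 1260.3, 727 and 837 CPM in control libraries (log2 fold change 1.41 ± 0.18 (SE), adjusted p = 0.000209). H2-Q6, a non-classical class I gene in a cluster of close copies, had 112, 121 and 123 CPM in homozygous libraries, against 46.3, 64.3 and 52.7 CPM in control libraries (log2 fold change 1.13 ± 0.14 (SE), adjusted p = 0.000178). All homozygous libraries were above all controls for both. The peptide transporter Tap1 (0.81), the proteasome activators Psme1 (0.49) and Psme2 (0.58) and the classical gene H2-K1 (0.44) rose.

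MHC class II genes, used by B cells, dendritic cells and macrophages, changed the other way in part, with 1 rise and 4 falls among 11 (median -0.38). Their summed level, however, was higher in every homozygous library. It was 4020, 3828 and 3762 CPM in homozygous libraries, against 3736, 3457 and 3274 CPM in control libraries. H2-Ob, a class II modulator of B cells, had 49.4, 57.4 and 65.6 CPM in homozygous libraries, against 119, 102 and 119 CPM in control libraries (log2 fold change -0.98 ± 0.14 (SE), adjusted p = 0.000617). H2-DMb2 had 16.8, 16.4 and 20.5 CPM in homozygous libraries, against 34.2, 38.9 and 35.3 CPM in control libraries (log2 fold change -1.02 ± 0.15 (SE), adjusted p = 0.000626). Both were lower in every homozygous library. Cd74, the invariant chain, fell (-0.58, adjusted p = 0.0235) and was not called after GC adjustment (-0.11, 0.361), and the list had 2 rises and 2 falls there. Without homozygous untreated 1 or 2, or control untreated 2 or 3, 2 members fell.

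Many genes of the B lineage were lower in homozygous marrow, from factors of commitment to surface proteins of the mature cell. Of 13 B lineage transcription factors 11 fell and none rose, with a median log2 fold change of -1.30, where 8.13% of all tested genes fell. B cell receptor genes fell in 9 of 13, mature B surface genes in 12 of 18 and recombination and pre-B receptor genes in 4 of 7. The summed level of the transcription factors was 586, 632 and 611 CPM in homozygous libraries, against 1195, 1352 and 1241 CPM in control libraries. These counts were 12, 8, 12 and 4 after GC adjustment. Of 8 surface genes of early B lineage cells, 1 rose and 2 fell (median -0.30), with 1 and 3 after GC adjustment and no rise without homozygous untreated 1 or 2 or control untreated 2 or 3. The median was 0.14 without control untreated 3. Their summed level was 1767, 1784 and 1651 CPM in homozygous libraries, against 2321, 1551 and 1877 CPM in control libraries, and the groups overlapped. The marker list of plasmacytoid dendritic cells holds Spib and Ly6d too. Its 12 markers summed to 440.2, 429 and 473 CPM in homozygous libraries, against 814, 922.5 and 850.3 CPM in control libraries, with 1 rise and 3 falls and, after GC adjustment, 0 and 4. Most of the gap between these sums came from Spib and Ly6d, whose values are given below. The part of these cells in the lower B lineage values was not tested.

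**Figure D4:**
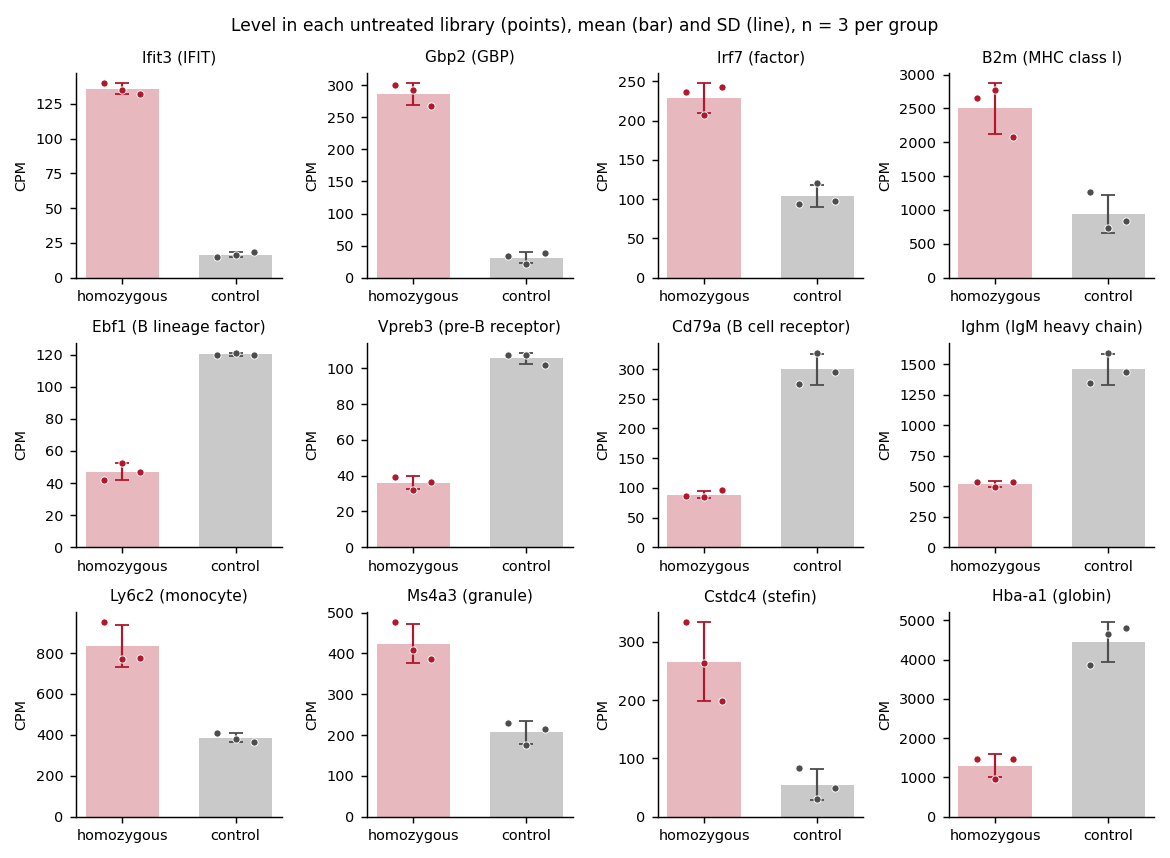
CPM in each of the 6 untreated libraries for 12 genes taken as examples of the interferon, B lineage, myeloid and erythroid lists; points are libraries, bars group means and lines the SD (n = 3 each), and every axis starts at 0. Homozygous points lie above all control points in the interferon and myeloid panels and below them in the B lineage and globin panels. All 12 are called genes, and every list shown except the IFIT family also had members that were not called.

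Ebf1, which with Pax5 commits cells to the B lineage, had 41.99, 52.2 and 47.1 CPM in homozygous libraries, against 119.5, 121 and 119.8 CPM in control libraries (log2 fold change -1.35 ± 0.12 (SE), adjusted p = 5.74e-06). Spib had 65.2, 56.1 and 81.2 CPM in homozygous libraries, against 191, 306 and 254 CPM in control libraries (log2 fold change -1.89 ± 0.19 (SE), adjusted p = 2.52e-05), and Bach2, a repressor needed at the pre-B stage, had 30.7, 34.1 and 27.8 CPM in homozygous libraries, against 91.2, 81.6 and 80.3 CPM in control libraries (log2 fold change -1.45 ± 0.16 (SE), adjusted p = 6.3e-05). The control libraries of Ebf1 lay close together, and no homozygous library of the 3 genes reached a control library. Tcf3, which encodes the E2A proteins (-1.79), Foxo1 (-1.02), Ikzf3 (-1.30), Irf4 (-1.39), Lef1 (-1.13) and Pax5 itself (-1.27, adjusted p = 0.00971) fell too. Ikzf1, which acts in all lymphoid and many myeloid cells, was not called (-0.04, adjusted p = 0.848). Between 10 and 12 of the 13 factors fell when a library was left out.

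Genes of antigen receptor assembly were lower in part. Rag1, a subunit of the recombinase, had 19.5, 17.3 and 13.04 CPM in homozygous libraries, against 43.99, 44.4 and 35.8 CPM in control libraries (log2 fold change -1.32 ± 0.21 (SE), adjusted p = 0.00189). Vpreb3 had 39.3, 32.1 and 36.6 CPM in homozygous libraries, against 107, 108 and 102 CPM in control libraries (log2 fold change -1.55 ± 0.19 (SE), adjusted p = 0.000138). Neither gene overlapped between groups. The surrogate light chain genes Igll1 (-0.95, adjusted p = 0.0133) and Vpreb1 (-0.92, 0.0385) fell, Rag2 (-0.72, 0.0807) and Dntt (-0.66, 0.0633) were not called, and without homozygous untreated 1 or 2, 2 of the 7 genes were called. The interleukin 7 receptor chain Il7r, needed by early B and T cells, was not called (-0.59, adjusted p = 0.0832), whereas Ly6d, a surface marker of B lineage commitment, had 85.7, 68.7 and 79.3 CPM in homozygous libraries, against 243, 318 and 256 CPM in control libraries (log2 fold change -1.81 ± 0.17 (SE), adjusted p = 1.58e-05).

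Cd79a and Cd79b encode the signalling chains of the B cell receptor. Cd79a had 85.8, 84.1 and 95.7 CPM in homozygous libraries, against 275, 328 and 296 CPM in control libraries (log2 fold change -1.76 ± 0.13 (SE), adjusted p = 1.49e-06). Cd79b had 88.9, 84.7 and 97.3 CPM in homozygous libraries, against 259.8, 314 and 282 CPM in control libraries (log2 fold change -1.66 ± 0.12 (SE), adjusted p = 1.18e-06). All homozygous libraries lay far below the controls, and the kinase Blk (-2.05) and the adaptor Blnk (-1.27) fell with them. Lyn (0.20, adjusted p = 0.163) and Btk (0.04, 0.847), which myeloid cells express as well, were not called. Syk, likewise shared, fell (-0.74, adjusted p = 0.00795).

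Among surface genes of mature B cells, Cd72, an inhibitory receptor, had 55.4, 44.6 and 57.9 CPM in homozygous libraries, against 169, 204 and 193 CPM in control libraries (log2 fold change -1.84 ± 0.14 (SE), adjusted p = 1.49e-06). Tnfrsf13c, the receptor of the survival factor BAFF, had 17.9, 23.5 and 19.2 CPM in homozygous libraries, against 65.9, 78.5 and 67.8 CPM in control libraries (log2 fold change -1.81 ± 0.14 (SE), adjusted p = 2.66e-06). No homozygous library reached a control library in either gene. S1pr1, the receptor by which lymphocytes leave tissues, had 49.8, 43.3 and 43.7 CPM in homozygous libraries, against 115, 111 and 99.4 CPM in control libraries (log2 fold change -1.25 ± 0.12 (SE), adjusted p = 1.12e-05). Ms4a1, which encodes CD20 (-1.25), Cd22 (-1.58), Cxcr5 (-1.40) and Ccr7 (-1.23) also fell. Cr2 (0.02, adjusted p = 0.976) and Cd55 (-0.10, 0.735) were not called.

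Immunoglobulin genes followed in part. Ighm, the heavy chain of IgM, had 535, 493 and 534 CPM in homozygous libraries, against 1345, 1598 and 1436 CPM in control libraries (log2 fold change -1.49 ± 0.11 (SE), adjusted p = 1.18e-06). Igkc, the kappa constant region, had 208, 213 and 212 CPM in homozygous libraries, against 385, 415 and 377 CPM in control libraries (log2 fold change -0.89 ± 0.11 (SE), adjusted p = 0.000215). Both groups were narrow and apart. Ighd, the heavy chain of IgD on mature naive cells, was not called (-0.16, adjusted p = 0.601), nor were the switched classes Igha, Ighg1, Ighg2b, Ighg2c and Ighg3. The 5 falls among 11 constant regions were Ighm, Igkc, Iglc1, Iglc2 and Iglc3, and they remained 5 in each fit without 1 library. Of the tested variable segments, 11 of 74 heavy, 4 of 84 kappa and 3 of 3 lambda segments fell and none rose, beside 8.13% falls over all tested genes, and the kappa share of 4.76% was below that background. After GC adjustment 9 heavy, 2 kappa and 3 lambda segments fell. The heavy count was 5 without homozygous untreated 2 or control untreated 2 and 7 without control untreated 3, and the kappa count was 0 to 2 without any 1 library other than control untreated 1. Summed over all 183 heavy segments, the level was 98.8, 98.6 and 94.9 CPM in homozygous libraries, against 172.6, 177 and 184 CPM in control libraries.

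Plasma cell genes did not move as 1 group. Irf4 fell, and Sdc1, the plasma cell marker CD138, had 7.16, 7.46 and 5.87 CPM in homozygous libraries, against 16.4, 22.3 and 19.9 CPM in control libraries (log2 fold change -1.52 ± 0.22 (SE), adjusted p = 0.000626). Its groups did not overlap. Jchain, which joins IgM and IgA, was higher, with 41.3, 40.7 and 31.1 CPM in homozygous libraries, against 21.7, 6.17 and 10.9 CPM in control libraries (log2 fold change 1.55 ± 0.40 (SE), adjusted p = 0.0217), a call lost without homozygous untreated 1 or 2 or control untreated 2 or 3. Prdm1, the factor of plasma cell fate, was not called (-0.49, adjusted p = 0.146). The EBF core (TCCCNNGGGA, both strands) stood in 1.02% of all promoters, in 1.73% of those of falling genes and in 2 of 34 (5.88%) promoters of falling B lineage genes.

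Monocyte and neutrophil genes were higher in part. Of 20 monocyte genes 10 rose and 3 fell (median 0.47), and 11 rose and 1 fell after GC adjustment. The summed monocyte level was 24690, 24760 and 23420 CPM in homozygous libraries, against 17820, 17120 and 17270 CPM in control libraries. The stefins stood out by size, with 8 of 10 tested members called and a median log2 fold change of 2.19.

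Ly6c2, the surface marker of classical monocytes, had 952, 773 and 774 CPM in homozygous libraries, against 409, 381 and 365 CPM in control libraries (log2 fold change 1.11 ± 0.12 (SE), adjusted p = 4.6e-05). Ms4a6c, a membrane protein of monocytes, had 474, 402 and 411 CPM in homozygous libraries, against 239, 176 and 222 CPM in control libraries (log2 fold change 1.01 ± 0.13 (SE), adjusted p = 0.000162). Every homozygous library was above every control library. Ccr2, the chemokine receptor that directs monocytes out of marrow (0.70), Lyz2, lysozyme (0.42), F13a1 (0.52) and Vcan (0.85) rose. Nr4a1 (-1.10), needed by patrolling monocytes, and Irf8 were among the falls. Csf1r, through which M-CSF keeps monocytes and macrophages alive, had 387, 372 and 450.0 CPM in homozygous libraries, against 348, 591 and 494 CPM in control libraries and was not called (log2 fold change -0.25 ± 0.16 (SE), adjusted p = 0.314); its groups overlapped. Without control untreated 1, 6 members fell.

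The stefin cluster encodes inhibitors of cysteine cathepsins, known from neutrophil precursors. Cstdc4 had 334, 264 and 199 CPM in homozygous libraries, against 83.6, 31.02 and 49.7 CPM in control libraries (log2 fold change 2.28 ± 0.30 (SE), adjusted p = 0.000317). Cstdc5 had 74.00, 53.3 and 38.7 CPM in homozygous libraries, against 12.4, 3.60 and 8.66 CPM in control libraries (log2 fold change 2.75 ± 0.34 (SE), adjusted p = 0.000152), and Stfa2 had 27.1, 21.5 and 17.1 CPM in homozygous libraries, against 4.39, 1.29 and 3.52 CPM in control libraries (log2 fold change 2.83 ± 0.37 (SE), adjusted p = 0.000282). Within each group the first library was the highest and the groups did not overlap. These genes are near-identical copies, so the division of reads among them is uncertain. Summed over the cluster the level was 991, 821 and 629 CPM in homozygous libraries, against 360.3, 211.6 and 248 CPM in control libraries. Cstb, the widely expressed member, was not called (0.22, adjusted p = 0.232).

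Among 11 genes of the primary granules, made at the promyelocyte stage, 4 rose and none fell (6 rose after GC adjustment). Ms4a3, a marker of granulocyte and monocyte progenitors, had 477, 408 and 386 CPM in homozygous libraries, against 229.6, 175 and 216 CPM in control libraries (log2 fold change 1.04 ± 0.13 (SE), adjusted p = 0.000211). Ctsc, the protease that activates granule enzymes, had 3027, 3148 and 2969.9 CPM in homozygous libraries, against 1750.5, 1550.2 and 1729 CPM in control libraries (log2 fold change 0.86 ± 0.10 (SE), adjusted p = 7.08e-05). Homozygous libraries were above the controls in both, while Mpo, myeloperoxidase, was not called (-0.19, adjusted p = 0.5). Of 21 genes of secondary granules and late neutrophils 8 rose and 3 fell (10 and 0 after GC adjustment). Mmp8, neutrophil collagenase, had 5243, 5122 and 5305 CPM in homozygous libraries, against 3579, 2968 and 3670.0 CPM in control libraries (log2 fold change 0.62 ± 0.11 (SE), adjusted p = 0.00222). S100a9 had 13197, 11348 and 9029 CPM in homozygous libraries, against 7843, 5963 and 6740.2 CPM in control libraries (log2 fold change 0.71 ± 0.14 (SE), adjusted p = 0.00646). Its lowest homozygous library was above the highest control library by a modest margin. Ltf (-0.12, adjusted p = 0.609) and Camp (0.01, 0.974) were not called, and the number of rises was 4 without homozygous untreated 1 or 2 and 5 without control untreated 2 or 3. The number of falls was 5 without control untreated 1, 1 without control untreated 3 and 0 without homozygous untreated 1 or 2 or control untreated 2.

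Macrophage genes split. Of 20, 3 rose and 7 fell (3 and 4 after GC adjustment). Apoe, an apolipoprotein abundant in macrophages, had 356, 302 and 408 CPM in homozygous libraries, against 669, 949.9 and 796 CPM in control libraries (log2 fold change -1.18 ± 0.18 (SE), adjusted p = 0.000838). Vcam1, an adhesion molecule of marrow macrophages, had 95.6, 108 and 66.6 CPM in homozygous libraries, against 43.1, 34.7 and 42.5 CPM in control libraries (log2 fold change 1.17 ± 0.17 (SE), adjusted p = 0.000631). The groups did not overlap in either gene. The complement genes C1qa (-1.11), C1qb (-0.85) and C1qc (-0.90) fell, and C1qa and C1qc were not called after GC adjustment (adjusted p = 0.0668 and 0.0982). Without homozygous untreated 2, 4 members fell.

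Basophil and mast cell genes rose in 6 of 9 tested members and fell in none, and 4 rose after GC adjustment. Mcpt8, a protease of basophils, had 238, 209 and 223 CPM in homozygous libraries, against 141, 132 and 126 CPM in control libraries (log2 fold change 0.75 ± 0.11 (SE), adjusted p = 0.000487). Fcer1a, a chain of the high-affinity IgE receptor, had 46.8, 32.5 and 37.6 CPM in homozygous libraries, against 17.5, 8.85 and 13.3 CPM in control libraries (log2 fold change 1.56 ± 0.24 (SE), adjusted p = 0.000905). Every homozygous library was above the controls. Leaving out any homozygous library or control untreated 3 left 3 calls. Prg2, the major basic protein of eosinophils, had 1141, 932 and 1025 CPM in homozygous libraries, against 1096, 1379.7 and 1199 CPM in control libraries, with overlapping groups, and was not called (log2 fold change -0.25 ± 0.12 (SE), adjusted p = 0.187).

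The study's title names osteoclasts, and 4 lists of osteoclast genes were examined. Tnfrsf11a, which encodes RANK, the receptor of the osteoclast-inducing ligand, had 31.8, 19.9 and 27.5 CPM in homozygous libraries, against 10.3, 14.9 and 14.3 CPM in control libraries (log2 fold change 1.00 ± 0.19 (SE), adjusted p = 0.00496). Every homozygous library was above every control library, and the value after GC adjustment was 0.98 (adjusted p = 0.00477). Of 12 tested precursor receptors and adaptors 3 rose and 1 fell. The others that rose were Lilrb4a (0.59), not called after GC adjustment (adjusted p = 0.135), and Fcer1g (0.53), and Trem2 fell (-0.73), with no call after GC adjustment (adjusted p = 0.0641). The number of falls was 4 without control untreated 1 and 0 without homozygous untreated 1 or 2 or control untreated 2.

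Of 10 tested osteoclast transcription factors 5 fell and none rose, and 1 fell after GC adjustment. Nfatc1, the factor that drives osteoclast maturation, had 82.6, 103 and 92.9 CPM in homozygous libraries, against 126, 158 and 144 CPM in control libraries (log2 fold change -0.62 ± 0.12 (SE), adjusted p = 0.00623), and after GC adjustment -0.28 (adjusted p = 0.115). Fos had 165, 197 and 196 CPM in homozygous libraries, against 278, 268 and 242 CPM in control libraries (log2 fold change -0.50 ± 0.11 (SE), adjusted p = 0.00925), and after GC adjustment -0.28 (adjusted p = 0.121). The groups did not overlap, yet the calls were lost with the adjustment. Without homozygous untreated 1 the list had 1 fall, and without homozygous untreated 2 or control untreated 2 or 3 it had 2.

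Among 10 tested genes of fusion and resorption, 3 fell. Acp5, tartrate-resistant acid phosphatase, had 10.7, 11.4 and 10.3 CPM in homozygous libraries, against 20.7, 40.4 and 31.5 CPM in control libraries (log2 fold change -1.52 ± 0.24 (SE), adjusted p = 0.00107), and after GC adjustment -1.04 (adjusted p = 0.00136). Control libraries varied most, and none reached the homozygous range. Mmp9 (-0.63) and Car2 (-0.40) fell, and Acp5 was the 1 member called without homozygous untreated 1 or 2 or without control untreated 2. Ctsk, cathepsin K of the mature osteoclast, had 0.802 to 2.16 CPM in homozygous and 0.856 to 1.66 CPM in control libraries and was not called, and Calcr, Dcstamp and Ocstamp were too low to test. Of 5 tested repressors and ligands 1 rose and 2 fell, and 2 rose and 1 fell after GC adjustment. Id2, an inhibitor of helix-loop-helix factors, rose (0.58, adjusted p = 0.0217) and Irf8 fell. Without homozygous untreated 1 or 2 or control untreated 2 or 3 the list had 0 rises and 1 fall, and without control untreated 1 it had 3 falls.

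STAT3 and its pathway were examined because the allele encodes an active STAT3. Stat3 had 293, 267 and 322 CPM in homozygous libraries, against 274, 438 and 359 CPM in control libraries and was not called (log2 fold change -0.28 ± 0.15 (SE), adjusted p = 0.221), with overlapping groups. Reads of the allele and of the native gene share a symbol, and whether those of the allele were counted there is not given in the sources used here. Of 31 tested genes of the STAT3 and interleukin 6 pathway 3 rose and 6 fell (median -0.25), and 2 rose and 2 fell after GC adjustment. Before the adjustment these were 9.68% rises and 19.4% falls, beside 6.69% and 8.13% over all tested genes.

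Socs3, which STAT3 induces and which in turn blocks cytokine receptors, had 94.9, 73.01 and 102 CPM in homozygous libraries, against 112, 173 and 144 CPM in control libraries (log2 fold change -0.67 ± 0.19 (SE), adjusted p = 0.0355). The value after GC adjustment was -0.12 (adjusted p = 0.524), and the call was lost in 4 of the 6 fits without 1 library. The groups did not overlap as measured. Cish, a feedback gene of STAT5, had 11.5, 12.1 and 14.6 CPM in homozygous libraries, against 4.45, 4.08 and 2.79 CPM in control libraries (log2 fold change 1.76 ± 0.24 (SE), adjusted p = 0.000433) and rose after the adjustment too (2.04). Bcl2l1, which encodes the survival protein BCL-XL, had 59.9, 51.8 and 60.4 CPM in homozygous libraries, against 93.2, 135 and 123 CPM in control libraries (log2 fold change -1.03 ± 0.18 (SE), adjusted p = 0.00247). Both genes kept the groups apart. The shared receptor chain Il6st was not called (0.36, adjusted p = 0.149). The number of falls in the list was 1 without homozygous untreated 1 or 2, 2 without control untreated 2, 3 without control untreated 3 and 13 without control untreated 1. Over all genes, falls in these fits, in the same order, numbered 467, 395, 509, 641 and 2363. The number of rises in the list was 1 without homozygous untreated 1 or 2 or control untreated 2 or 3.

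Immediate early genes, induced within minutes of stimulation and handling, fell in 15 of 24 and rose in 2 (median -0.51), but after GC adjustment 4 fell and 1 rose. Egr1 had 44.7, 40.4 and 41.9 CPM in homozygous libraries, against 85.5, 86.1 and 87.8 CPM in control libraries (log2 fold change -1.03 ± 0.11 (SE), adjusted p = 5.37e-05), and after GC adjustment -0.55 (adjusted p = 0.0181). Dusp2, a phosphatase of lymphocytes, had 6.46, 9.20 and 9.68 CPM in homozygous libraries, against 31.8, 31.7 and 29.6 CPM in control libraries (log2 fold change -1.87 ± 0.20 (SE), adjusted p = 3.85e-05), and after GC adjustment -1.33 (adjusted p = 0.000512). Both were lower in all homozygous libraries. Junb fell (-0.73) and was not called after the adjustment (-0.10, adjusted p = 0.474), and without homozygous untreated 1 or 2, 7 members fell. The 2 rises were lost without any 1 library other than control untreated 1.

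Globin levels were lower in homozygous marrow. Hba-a1, an alpha globin gene, had 1481, 968 and 1459.9 CPM in homozygous libraries, against 3865, 4659.5 and 4819.9 CPM in control libraries (log2 fold change -1.77 ± 0.19 (SE), adjusted p = 4.04e-05). Hba-a2, its near-identical copy, had 452, 297 and 329 CPM in homozygous libraries, against 1061, 1384 and 1149 CPM in control libraries (log2 fold change -1.74 ± 0.18 (SE), adjusted p = 3.58e-05). Hbb-bs, a beta globin gene, had 6180.2, 4715 and 3763 CPM in homozygous libraries, against 10051, 8142 and 7419 CPM in control libraries (log2 fold change -0.81 ± 0.16 (SE), adjusted p = 0.00632). The groups did not overlap, and 3 of 4 tested globins fell in the main fit, after GC adjustment and in every fit without 1 library, while Hbb-bt was not called (-0.27, adjusted p = 0.305).

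Alas2, the erythroid enzyme that starts heme synthesis, had 873, 713 and 882 CPM in homozygous libraries, against 1447, 2172 and 1836 CPM in control libraries (log2 fold change -1.14 ± 0.15 (SE), adjusted p = 0.000231). Tfrc, the transferrin receptor of dividing erythroid precursors, had 516, 655 and 592 CPM in homozygous libraries, against 412, 274 and 326 CPM in control libraries (log2 fold change 0.80 ± 0.15 (SE), adjusted p = 0.00441). The 2 genes moved in opposite directions in all libraries. The erythroid factors Klf1 (0.54, adjusted p = 0.113) and Gata1 (-0.26, 0.209) were not called. Of 13 red cell membrane genes 5 fell and 1 rose (2 and 2 after GC adjustment), and 1 or 2 fell without any library other than control untreated 1.

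T cells are the main cells in which the Cre is active, and their transcripts were scarce. Cd4 had 4.99, 7.30 and 3.41 CPM in homozygous libraries, against 5.02, 7.41 and 8.47 CPM in control libraries and was not called (log2 fold change -0.41 ± 0.49 (SE), adjusted p = 0.592); its groups overlapped. Of 24 tested T cell genes 4 fell (16.7%, beside 8.13% over all tested genes) and none rose, with 3 falls after GC adjustment. Il2ra, the interleukin 2 receptor alpha chain, also expressed by pre-B cells, had 7.54, 5.35 and 6.67 CPM in homozygous libraries, against 15.3, 18.8 and 21.8 CPM in control libraries (log2 fold change -1.52 ± 0.24 (SE), adjusted p = 0.00105). Lef1, also on the B lineage list, had 13.3, 12.3 and 14.04 CPM in homozygous libraries, against 24.9, 34.1 and 27.7 CPM in control libraries (log2 fold change -1.13 ± 0.18 (SE), adjusted p = 0.00107). Homozygous libraries were below the controls in both. The summed level of 27 T cell genes was 128, 127 and 122 CPM in homozygous libraries, against 173, 200.2 and 197 CPM in control libraries. Il2ra and Lef1 are in this sum and make up a large part of its gap. Foxp3 was too low to test, and without homozygous untreated 1, 2 genes fell.

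Among 10 tested natural killer and cytotoxic genes 3 rose, and 1 after GC adjustment. Gzmb, granzyme B, had 3.42, 3.50 and 4.31 CPM in homozygous libraries, against 0.799, 0.107 and 0.636 CPM in control libraries (log2 fold change 2.85 ± 0.47 (SE), adjusted p = 0.00176). Klrk1, the receptor NKG2D, had 24.5, 33.3 and 22.97 CPM in homozygous libraries, against 8.79, 10.4 and 9.79 CPM in control libraries (log2 fold change 1.48 ± 0.27 (SE), adjusted p = 0.00322), and after the adjustment 0.95 (adjusted p = 0.0656). Both were higher in every homozygous library. The defining marker Ncr1 was at 0 in all homozygous libraries and at 0 to 1.34 CPM in control libraries.

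In the stem and progenitor list, 3 of 17 genes rose (17.6%) and 2 fell (11.8%), beside 6.69% and 8.13% over all tested genes. Ly6a, which encodes the stem cell antigen SCA-1 and is also induced by interferon, had 362, 364 and 301 CPM in homozygous libraries, against 103, 80.7 and 88.7 CPM in control libraries (log2 fold change 1.92 ± 0.13 (SE), adjusted p = 8.41e-07). Its neighbour Ly6i had 115, 107 and 92.3 CPM in homozygous libraries, against 27.4, 23.7 and 27.8 CPM in control libraries (log2 fold change 2.00 ± 0.13 (SE), adjusted p = 6.92e-07). Sox4, a factor of early B cells and progenitors, had 23.98, 18.5 and 24.3 CPM in homozygous libraries, against 64.6, 62.3 and 54.9 CPM in control libraries (log2 fold change -1.44 ± 0.17 (SE), adjusted p = 9.64e-05). The Ly6 genes were higher and Sox4 lower in all homozygous libraries, with 5 rises in the list without control untreated 1 and 1 fall without homozygous untreated 2. Cd34 rose (0.74) while Kit was not called (0.19, adjusted p = 0.428).

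Other pathways gave smaller groups of calls. Of 20 p53 targets 6 rose and none fell, also after GC adjustment, and 3 rose without homozygous untreated 3. Gdf15, a stress-induced cytokine, had 10.8, 7.10 and 12.4 CPM in homozygous libraries, against 2.40, 1.82 and 0.832 CPM in control libraries (log2 fold change 2.59 ± 0.39 (SE), adjusted p = 0.000772), and Cdkn1a, the cell cycle inhibitor p21, rose (0.59, adjusted p = 0.0358). Trp53 itself (-0.53, 0.0979) and Mdm2 (0.26, 0.14) were not called. Casp1, the inflammasome protease, had 312, 282 and 282 CPM in homozygous libraries, against 141, 71.2 and 142 CPM in control libraries (log2 fold change 1.30 ± 0.21 (SE), adjusted p = 0.00134), and Casp4 (1.29), Tlr4 (0.77) and Tlr13 (0.60) rose among 7 of 19 pattern recognition genes. That count was 4 without homozygous untreated 2 or control untreated 2.

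Of 15 tested Notch pathway genes 4 fell (26.7%, beside 8.13% over all tested genes) and none rose. The median GC content of the list was 57.1%, and in groups 9 and 10 by GC content 21% and 23.5% of genes fell. Dtx1, a Notch target of B cells, had 2.06, 1.49 and 2.56 CPM in homozygous libraries, against 13.5, 25.8 and 19.9 CPM in control libraries (log2 fold change -3.27 ± 0.29 (SE), adjusted p = 8.32e-06), and Notch1 had 35.9, 35.7 and 39.4 CPM in homozygous libraries, against 55.5, 91.4 and 65.7 CPM in control libraries (log2 fold change -0.94 ± 0.19 (SE), adjusted p = 0.00731). All homozygous libraries were lower in both. After GC adjustment Dtx1 had a log2 fold change of -2.64 (adjusted p = 2.67e-06), and in the list 2 fell and 1 rose. The list had 2 falls without homozygous untreated 1 or 2 or control untreated 2 or 3.

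Histone deacetylases, enzymes that SCFA inhibit, fell in 4 of 11 (36.4%, beside 8.13% over all tested genes). Hdac9 had 7.27, 10.1 and 7.42 CPM in homozygous libraries, against 21.5, 24.2 and 22.03 CPM in control libraries (log2 fold change -1.45 ± 0.18 (SE), adjusted p = 0.000187), and Hdac7 had 6.02, 4.99 and 6.82 CPM in homozygous libraries, against 11.6, 17.7 and 14.05 CPM in control libraries (log2 fold change -1.28 ± 0.25 (SE), adjusted p = 0.00496). The groups did not overlap in either gene. The count was 4 after GC adjustment and 2 without homozygous untreated 1 or 2 or control untreated 2. The SCFA receptor gene Ffar2 was not called (0.20, adjusted p = 0.563), and Acss1, which activates acetate in mitochondria, had 24.1, 30.7 and 32.8 CPM in homozygous libraries, against 56.02, 83.9 and 75.1 CPM in control libraries (log2 fold change -1.30 ± 0.17 (SE), adjusted p = 0.000237).

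Nuclear genes of oxidative phosphorylation rose in 24 of 79 and fell in 1, with 30 and 0 after GC adjustment, but no rise was called without homozygous untreated 1 and 2 without homozygous untreated 2 or control untreated 2 or 3, and 6 members fell without control untreated 1. Cycs, cytochrome c, had 199, 176 and 162 CPM in homozygous libraries, against 133, 76.4 and 103 CPM in control libraries (log2 fold change 0.78 ± 0.17 (SE), adjusted p = 0.00888). The mitochondrially encoded mt-Co1 had 5219, 5303 and 4821 CPM in homozygous libraries, against 5263, 2303 and 3392 CPM in control libraries, with overlapping groups, and was not called (log2 fold change 0.49 ± 0.21 (SE), adjusted p = 0.126), whereas 10 of the 12 tested genes of its kind rose without control untreated 1. Cytosolic ribosomal protein genes rose in 15 of 79 and fell in none, with 26 rises and 1 fall after GC adjustment and 21 rises and 4 falls without control untreated 1, but 0 or 1 rises without homozygous untreated 1 or 2 or control untreated 2 or 3. Of 21 genes of the G2 and M phases 7 rose, among them Cdk1 (0.57) and Ccnb1 (0.68), and 1 fell. Rises in that list numbered 4 after GC adjustment and 3 or 4 without any 1 library other than control untreated 1.

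**Figure D5:**
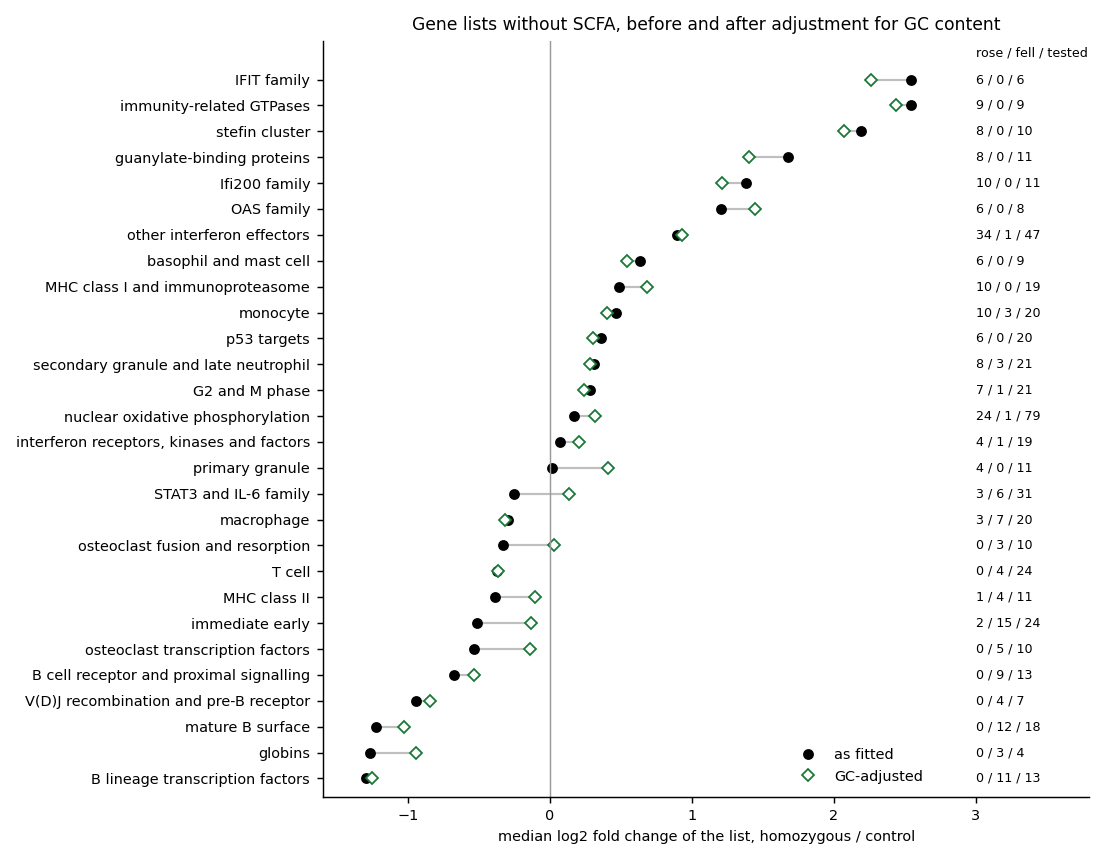
Median log2 fold change, homozygous over control untreated, of 28 gene lists as fitted (filled circles) and after adjustment for GC content (open diamonds), with the numbers of members that rose, fell and were tested. Interferon and stefin medians lie above 0 and B lineage and globin medians below 0 in both fits, while the STAT3 and the osteoclast fusion medians change sign.

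By position, falls made up 12.2% of the tested genes of chromosome 19, 11.9% of chromosome 11 and 11.7% of chromosome 7, against 3.33% of the X chromosome. Over all tested genes 8.13% fell. Rises on these chromosomes, in the same order, were 8.72%, 6.48%, 4.87% and 9.77%, beside 6.69% over all tested genes. These shares were not adjusted for GC content, and the part of the GC trend in them was not tested. Within 5 Mb of Gt(ROSA)26Sor, the insertion locus at chromosome 6, 113067428 to 113077333 in mm10, 2 of 71 tested genes rose and 5 fell (9.86% called, beside 14.8% over all tested genes), with a median log2 fold change of -0.11.

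The effect of genotype without SCFA was set beside that under SCFA by a test of the difference. It was called in 3938 genes (25.1% of those tested), 1813 with a higher and 2125 with a lower value without SCFA, and after GC adjustment in 648 and 1035. Treatment and the date in the labels cannot be told apart in this difference, since untreated libraries carry 1 date and SCFA libraries another. Spearman's rho of the genotype fold change with GC content was -0.5 without SCFA and 0.419 under SCFA. Among the 5 largest named rises, Ifit3b had a log2 fold change of 3.15 without SCFA and -0.65 under SCFA (difference 3.81 ± 0.39 SE, adjusted p = 3.41e-05). Eda2r had 3.85 and 4.29 (difference -0.44 ± 1.197, adjusted p = 0.817). Among the 5 largest named falls, Dtx1 had -3.27 and -3.08 (difference -0.19 ± 0.40, adjusted p = 0.753) and Srpk3 -2.34 and -2.43 (difference 0.09 ± 0.57, adjusted p = 0.921). The difference was thus called for Ifit3b and not for the other 3. After GC adjustment it was 3.35 for Ifit3b, -0.98 for Eda2r, 0.90 for Dtx1 and 0.62 for Srpk3 (adjusted p = 6.95e-05, 0.639, 0.0662 and 0.497). As fitted, the difference was also called for all the remaining genes among the 5 largest named rises and 5 largest named falls, which are given further below.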

How the data were processed

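RNA was measured by low-input polyA RNA-seq. The authors deposited a table of whole-number read counts for 55291 gene symbols, of which 22077 were 0 in all 12 libraries. Reads were aligned with STAR to mm10 and counted with featureCounts, per the submitters' processing notes; which annotation was used, and whether strand was, is not stated. From these counts genes were filtered with filterByExpr by group, normalised by TMM and tested with edgeR 4.0.16 (quasi-likelihood F test, R 4.3.3) over 4 group means of all 12 libraries, with the homozygous minus control contrast among untreated libraries and Benjamini-Hochberg adjustment over all tested genes. SE is the log2 fold change divided by the square root of F. The script was tested on simulated data. Genes were named by a rule: the 15 largest called rises and falls with a mean of at least 5 CPM over the 6 libraries and no overlap between groups, leaving out unnamed gene models and antigen receptor segments, up to 4 called members of each list with the smallest p (2 with the highest mean CPM where none was called), other members with their fold change alone, and Stat3, Socs3, Cd4, Tnfrsf11a and Csf1r. The genes and lists were chosen with earlier results of these data known. Alternatives used RLE factors, no filter, DESeq2 1.42.0, limma 3.58.1 (voom with quality weights), the 6 untreated libraries alone, a replicate block, each library left out, and an offset for GC content of the longest GENCODE M21 transcript. A floor of 3 counts corresponds to 0.1468 to 0.1712 CPM per library and covers counting error only. Promoters are from RefSeq on GRCm38.p6. Some list members are counted in their lists and not reported singly here.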

Additional observations from a re-analysis of the deposited data

Results flagged for a closer look

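For 7 of the 10 named genes examined, the effect of genotype differed between untreated and SCFA libraries by edgeR's test of the difference; treatment and label date cannot be told apart. Iigp1 had a log2 fold change of 5.49 without SCFA and 2.68 under SCFA (adjusted p = 0.00501), with means of 21.9 CPM in homozygous and 3.36 CPM in control SCFA libraries. Serpina3f had 3.51 and 0.84 (adjusted p = 0.00391). Gbp2 had 3.20 and 2.21 (adjusted p = 0.0186, and 0.113 after GC adjustment). Ifit3b had 3.15 and -0.65 (adjusted p = 3.41e-05), with SCFA means of 9.05 CPM in homozygous and 14.3 CPM in control libraries. Tmem108 had -2.26 and -3.49 (adjusted p = 0.0389, and 0.0669 after GC adjustment). Tmem132e had 0 counts in homozygous and 209 counts in control SCFA libraries, at least 65.9-fold lower against a floor of 3 counts over the group (adjusted p of the difference 0.0125). Col5a3 had 0 counts in homozygous and 1410 counts in control SCFA libraries, at least 448-fold lower (adjusted p of the difference 0.000106). The fold changes of these 2 genes fitted under SCFA depend on the prior count and are not given.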

How the results depend on the processing

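The calls without SCFA, 1048 rises and 1275 falls, numbered 1700 rises with DESeq2, 1885 and 2037 with limma-voom, 389 and 525 with only the 6 untreated libraries, and 576 and 531 with the replicate block. Falls numbered 624 after GC adjustment and 508 with GC adjustment and replicate block. Leaving out 1 library gave 374 to 1970 rises and 395 to 2363 falls. The calls of the difference between untreated and SCFA libraries, 1813 and 2125, numbered 2950 higher with limma-voom, 648 and 1035 after GC adjustment, and 1108 to 2462 and 1471 to 2917 without 1 library. The fit with fewer libraries has fewer samples; otherwise the cause was not tested. Of 390 called genes followed, 194 were called in every alternative and 302 after GC adjustment. Replicate numbers did not pair the libraries (correlations 0.0127, -0.114 and 0.0165), so the block is an alternative only.
Of 1077 list members and named genes followed, 11 that were not called and lay between -0.26 and -0.01 as fitted were called with the opposite sign once GC content was adjusted for: the log2 fold changes of H2-D1 (0.41), Elane (0.39), Prtn3 (0.57), Ltb4r1 (0.46), Myd88 (0.26), Bbc3 (0.55), Eno1 (0.24), Pkm (0.28) and Rps2 (0.36) after GC adjustment, and with the replicate block as well those of H2-D1 (0.41), Elane (0.39), Prtn3 (0.56), Ltb4r1 (0.45), Tyrobp (0.28), Rpl37a (0.44) and Rps2 (0.36). The first 9 enter the GC-adjusted list counts as rises.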
